A study of Mus musculus with 6 samples.

Results

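The 52 genes described here encode enzymes of glutathione metabolism and of xenobiotic detoxification, together with NRF2 (gene Nfe2l2) and KEAP1, the factor and the inhibitor that control many of them. They were chosen by name from 10 enzyme families after earlier results of these arrays had been seen. The comparison of TGF-β1 with control is therefore given for them as a description. Members that passed the thresholds used for all genes are listed beside the share of all genes, not as a test of the members. Of the 22910 genes that had a probe on the array, 51 were among these members, and a probe for Ugt1a7c was not found. In 47 of the 51, at least 1 probe was well above background on 3 or more of the 6 arrays, and these 47 were compared among 14345 genes. In each of the 47 the probe used was well above background on all 6 arrays.

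The cultures were 2D-MAO, mouse airway epithelial organoids of C57BL/6 lung that had been plated as a flat layer. On day 3 the medium of both groups was replaced by one that lacked noggin, an inhibitor of BMP, and A83-01, an inhibitor of the TGF-β receptor kinase. TGF-β1, a secreted growth factor, was added at that change to 3 cultures, and 3 control cultures received none. All 6 were collected on day 7, and neither the labels nor the microarray methods repeat the concentration of TGF-β1. RNA from each culture was hybridized with a single dye to 1 array, and the 6 arrays lay on 1 slide.

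Between 55.0% and 59.0% of the probes of each array were well above background. Replicate 3 of both groups lay in slide row 2 and the other 4 arrays in row 1. All 7 markers of airway epithelium were well above background on at least 3 arrays, as were all 8 of club, all 8 of ciliated and all 6 of basal cells and 5 of 8 fibroblast markers. Of 6 markers each, 2 of endothelium (Pecam1 and Vwf), 2 of leukocytes (Cd68 and Cd3e) and 2 of goblet cells (Spdef and Agr2) were, while Cdh5, Kdr and Tek, Ptprc, and Muc5ac and Muc5b were among those that were not. In such cultures, fewer cells of a type and less RNA per cell cannot be told apart.

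Glutathione is a tripeptide that is made in steps by glutamate-cysteine ligase and glutathione synthetase. Glutathione S-transferases (GSTs) join it to electrophilic compounds, and glutathione peroxidases use it to reduce peroxides. Phase I enzymes such as the cytochromes P450 oxidise foreign compounds first, and club cells of the airway are known for a high content of them. NRF2 enters the nucleus when KEAP1 is modified by electrophiles and binds antioxidant response elements near genes of both pathways.

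The 47 genes were lower on the whole in the cultures with TGF-β1, and the alpha GSTs were the farthest apart. The mean was lower in 39 of them and higher in 8, so that 83.0% of them had a lower mean, against 54.2% of all genes tested. Their median log2 difference, TGF-β1 minus control, was -0.29, and that of all genes was -0.03. It depended on the slide row, at -0.36 in row 1 with 41 of the 47 lower and -0.06 in row 2 with 28 lower. Single differences ran from -2.04 for Gm10639 to 0.70 for Aldh1a3, and 16 of the 47 were smaller than 0.25 in size.

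By limma with Benjamini-Hochberg adjustment over all genes, an adjusted p under 0.05 together with a change of 2-fold was reached by 2 members that were lower, Gsta2 and Gm10639, and by 0 that were higher. The share of all genes was 0.188% lower and 1.19% higher. With no minimum for the fold, 4 members were lower, as Gsta4 and Cyp4b1 joined the former pair, and 0 were higher, beside 0.404% and 1.63% of all genes. At an unadjusted p under 0.05 there were 12 lower and 1 higher of 47, and 22.2% of all genes passed in either direction. In 16 members each TGF-β1 array lay below each control array, and in 1, Aldh1a3, each lay above, where all genes gave 13.5% and 12.9%. Since the members were chosen with this contrast known, these counts are listed and nothing is read from them.

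**Figure D1:**
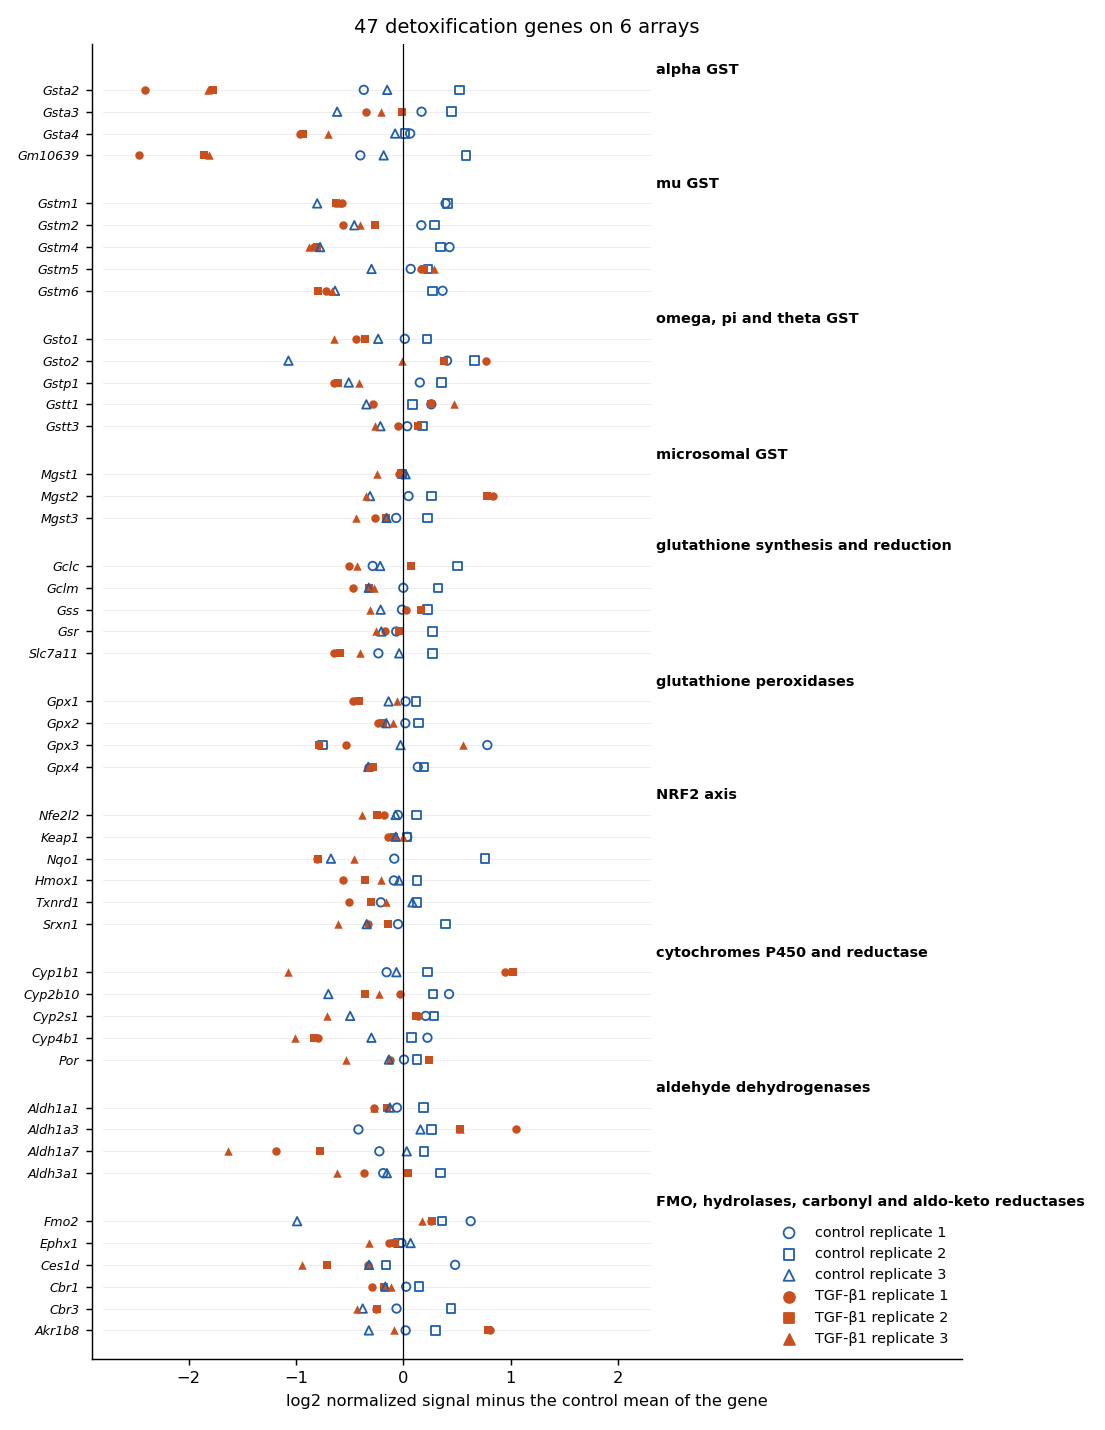
Each row is 1 of the 47 genes that were compared, grouped by family, and each point is 1 array as the log2 normalized signal minus the control mean of that gene (open blue, control; filled orange, TGF-β1; the shape gives the replicate number). The TGF-β1 arrays of Gsta2 and Gm10639 lie farthest to the left, and control replicate 3 lies beside the TGF-β1 arrays for most mu GSTs.

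The alpha GSTs conjugate glutathione to lipid peroxidation products and reduce organic hydroperoxides. Gsta2 had a log2 normalized signal of 7.63, 8.52 and 7.84 in control replicates 1, 2 and 3 and of 5.59, 6.22 and 6.17 in the TGF-β1 replicates. All 3 TGF-β1 cultures were below the lowest control, and the mean went from 8.0 ± 0.46 to 6.00 ± 0.35 (SD, n = 3), a log2 difference of -2.0 ± 0.27 (SE, n = 3 per group) or 4.0-fold. The signal of Gm10639 was 8.69, 9.68 and 8.91 without and 6.63, 7.23 and 7.28 with TGF-β1. Gm10639 is a predicted alpha GST gene, and its groups did not overlap either, with means from 9.09 ± 0.52 to 7.05 ± 0.36 (SD, n = 3) and a log2 difference of -2.04 ± 0.29. In both genes control replicate 2 was the highest array and TGF-β1 replicate 1 the lowest. Gsta4 was at 12.81, 12.76 and 12.67 in the control and at 11.79, 11.81 and 12.04 in the TGF-β1 cultures. Gsta4, whose enzyme is known for handling 4-hydroxynonenal, had tight groups that did not overlap and a log2 difference of -0.87 ± 0.12, a 1.82-fold lower mean. For Gsta3 the controls were at 13.37, 13.65 and 12.58 and the TGF-β1 cultures at 12.85, 13.19 and 12.98. The groups of Gsta3 overlapped, since control replicate 3 was the lowest of all 6 arrays, and the log2 difference was -0.19 ± 0.27. The family median was -1.43, and all 4 members had a lower mean.

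Gsta2, Gm10639 and Gsta4 were lower in both slide rows, with log2 differences within rows 1 and 2 of -2.16 and -1.67 for Gsta2, -2.24 and -1.63 for Gm10639, and -0.99 and -0.63 for Gsta4. Gsta3 was -0.49 in row 1 and 0.40 in row 2. The pair that met both thresholds no longer did so without control replicate 1 or 2 or TGF-β1 replicate 1 or 2, and Gm10639 did not without control replicate 3, although the log2 difference stayed between -2.17 and -1.73 for Gsta2 and between -2.23 and -1.74 for Gm10639. With the normexp background it was -1.28 and -1.60.

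Gsta4, Gm10639 and Gsta2 lie close together on chromosome 9 in the RefSeq annotation of GRCm38.p6. The protein-coding genes there run Gsta4, Gsta1, Gm3776, Gm10639, Omt2a, Omt2b and Gsta2. No probe matched Gsta1 or Gm3776, and whether their RNA also binds the probes of Gsta2 or Gm10639 was not tested. The 250 bases before the start sites of the pair are shown here because they resemble each other, with stretches of at least 12 bases that the aligned promoters share in capitals. They are from RefSeq, build GRCm38.p6, chr9:78347146-78347395 on the minus strand for Gsta2 and chr9:78289678-78289927 on the plus strand for Gm10639.
Gsta2: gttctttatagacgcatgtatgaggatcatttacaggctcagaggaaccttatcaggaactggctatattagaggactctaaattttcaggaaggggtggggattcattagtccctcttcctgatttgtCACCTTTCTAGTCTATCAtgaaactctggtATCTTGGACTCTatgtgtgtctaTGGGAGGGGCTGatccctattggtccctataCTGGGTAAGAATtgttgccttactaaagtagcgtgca
Gm10639: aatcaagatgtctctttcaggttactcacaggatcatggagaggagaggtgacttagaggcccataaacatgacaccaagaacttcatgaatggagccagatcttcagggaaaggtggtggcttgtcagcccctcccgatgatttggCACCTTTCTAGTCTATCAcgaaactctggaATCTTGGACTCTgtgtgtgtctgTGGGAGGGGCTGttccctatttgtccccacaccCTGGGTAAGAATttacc
Of 222 aligned bases 172 were identical (77.5%), and 4 shared stretches, the longest of 18 bases, held 54 of them.

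The mu GSTs, which are cytosolic enzymes encoded by a cluster of genes on chromosome 3, showed another pattern, in that 1 control array stood with the TGF-β1 arrays. The signal of Gstm1 was 14.16, 14.17 and 12.96 without and 13.19, 13.13 and 13.16 with TGF-β1. Gstm4 was at 11.08, 10.997 and 9.88 in the control and at 9.82, 9.85 and 9.77 in the TGF-β1 cultures. For Gstm6 the controls were at 12.11, 12.02 and 11.11 and the TGF-β1 cultures at 11.03, 10.95 and 11.09. For all 3 genes control replicates 1 and 2 were about 1 log2 unit above the TGF-β1 cultures, which differed little among themselves, while control replicate 3 was beside them. The groups of Gstm4 and Gstm6 were apart by a small margin, and those of Gstm1 overlapped. The log2 differences were -0.60 ± 0.32 for Gstm1, -0.84 ± 0.31 for Gstm4 and -0.73 ± 0.26 for Gstm6. Without control replicate 3 they were -1.01, -1.22 and -1.04. Within slide row 1 they were -1.01, -1.2 and -1.07, and within row 2, which holds both replicates 3, they were 0.20, -0.10 and -0.02. The signal of Gstm2 was 15.44, 15.56 and 14.82 without and 14.71, 15.01 and 14.87 with TGF-β1. Gstm2 had overlapping groups and a log2 difference of -0.41 ± 0.21. Gstm5 was the only mu member with a higher mean, at 0.22 ± 0.15.

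The club cell secretoglobin Scgb1a1 had a like order of arrays, at 10.83, 10.18 and 7.77 in the control and 7.00, 7.57 and 7.42 in the TGF-β1 cultures (limma adjusted p = 0.158). Of the 8 club markers 6 had a lower and 2 a higher mean, and each was well above background on 5 or 6 arrays. They did not all share this order. Scgb3a2 was higher without overlap (1.05 ± 0.28, limma adjusted p = 0.117), and Cyp2f2 differed by -0.07 ± 0.09. In Hp control replicate 3 was the highest control. Their summed normalized signal was between 231200 and 269100 in the control and between 206200 and 242900 in the TGF-β1 cultures. Cyp2f2 and Cbr2, the brightest of the 8, are also among the companion genes below. The part of club cells in the values of the GSTs was not tested.

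**Figure D2:**
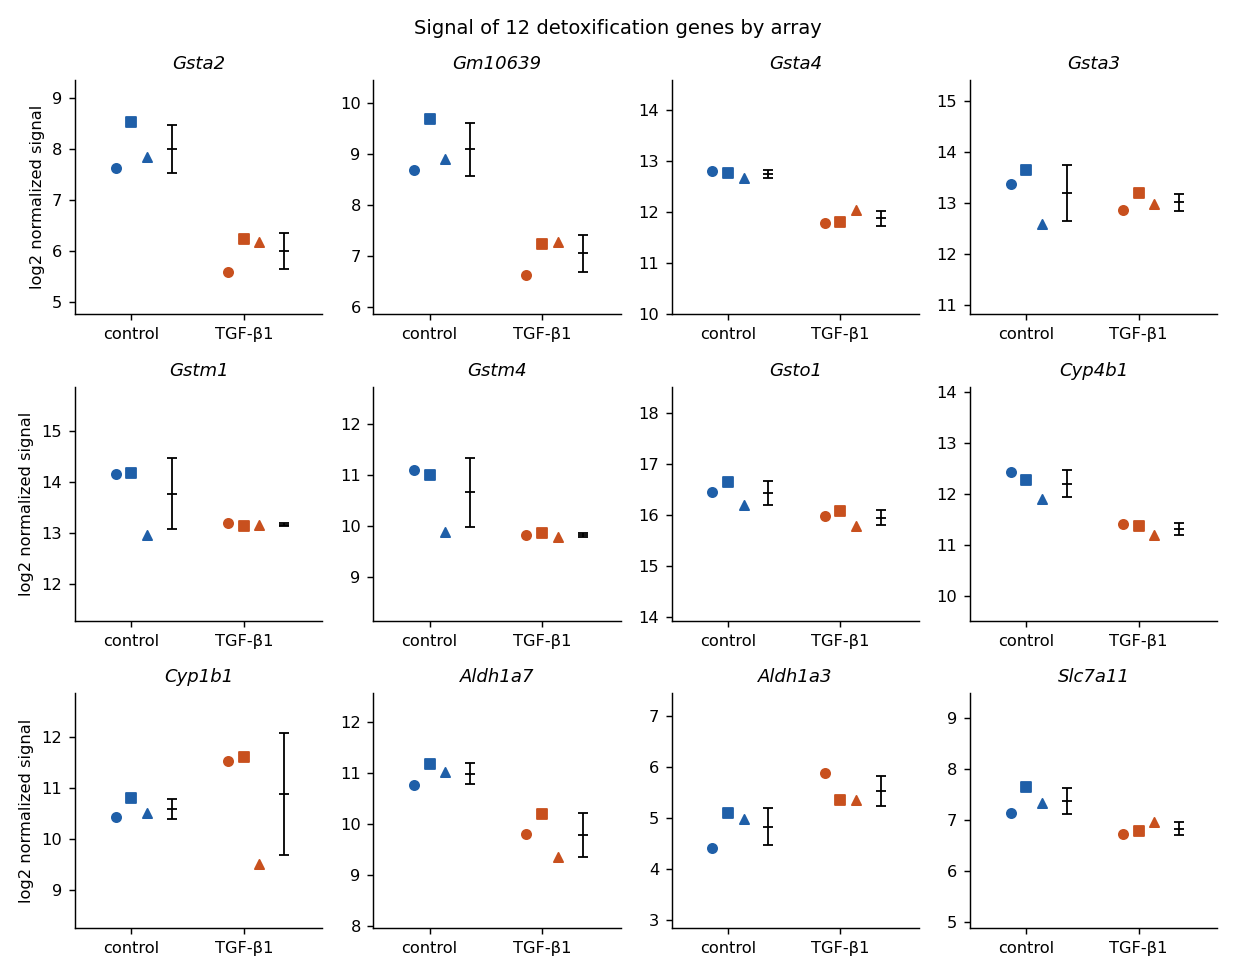
Log2 normalized signal of 12 members on each array (blue, control; orange, TGF-β1; circle, square and triangle are replicates 1, 2 and 3), with mean ± SD of 3 arrays in black and the same height of axis in every panel. Groups are apart for Gsta2, Gm10639, Gsta4, Gsto1, Cyp4b1, Aldh1a7 and Slc7a11, which are lower, and for Aldh1a3, which is higher. Those of Gstm4 are apart by a small margin. Gstm1 and Gstm4 depend on control replicate 3 and Cyp1b1 on TGF-β1 replicate 3.

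Omega GSTs act as thioltransferases and dehydroascorbate reductases, and pi GST is a widely expressed form. Gsto1 was at 16.44, 16.65 and 16.19 in the control and at 15.98, 16.07 and 15.79 in the TGF-β1 cultures. Gsto1 was lower on each TGF-β1 array than on each control array, with a log2 difference of -0.48 ± 0.15. For Gstp1 the controls were at 12.18, 12.38 and 11.52 and the TGF-β1 cultures at 11.38, 11.42 and 11.61. Here control replicate 3 again lay within the range of the TGF-β1 cultures, and the log2 difference of -0.55 ± 0.23 was -0.88 in row 1 and 0.10 in row 2. Gsto2, next to Gsto1 on chromosome 19, had a higher mean by 0.38 ± 0.46 (-0.16 without control replicate 3), and a further Gsto2 probe that was never well above background was lower, at -0.28. Gstt1 and Gstt3 differed by 0.15 and -0.06. The probe of Gstt2 was well above background on 0 of the 6 arrays.

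The microsomal transferases are membrane proteins of the endoplasmic reticulum. The signal of Mgst1 was 15.66, 15.65 and 15.69 without and 15.63, 15.65 and 15.43 with TGF-β1. Mgst1 differed by -0.10 ± 0.11, a 1.07-fold lower mean, and its groups were apart by a margin below the rounding shown. Mgst2 was at 11.90, 12.11 and 11.54 in the control and at 12.68, 12.63 and 11.50 in the TGF-β1 cultures. Mgst2 was about 0.8 above the control mean in TGF-β1 replicates 1 and 2 and below each control in replicate 3, so that the log2 difference of 0.42 ± 0.34 became 0.81 without TGF-β1 replicate 3. Mgst3 had a log2 difference of -0.29 ± 0.14.

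All 5 genes of glutathione synthesis and reduction had a lower mean, by a small amount, with a median of -0.29. For Slc7a11 the controls were at 7.14, 7.64 and 7.33 and the TGF-β1 cultures at 6.73, 6.78 and 6.97. Slc7a11 encodes the cystine importer xCT, and by the probes used it was the only one of the 5 whose groups did not overlap (-0.55 ± 0.16). The signal of Gclc was 11.78, 12.57 and 11.85 without and 11.56, 12.14 and 11.64 with TGF-β1. Gclm was at 11.46, 11.79 and 11.14 in the control and at 10.99, 11.14 and 11.19 in the TGF-β1 cultures. These are the catalytic and the modifier subunit of glutamate-cysteine ligase, and their groups overlapped at log2 differences of -0.29 ± 0.25 and -0.36 ± 0.18. For Gsr the controls were at 13.42, 13.76 and 13.28 and the TGF-β1 cultures at 13.32, 13.44 and 13.23. Gsr, glutathione reductase, was at -0.16 ± 0.15, and Gss, glutathione synthetase, at -0.04 ± 0.17.

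The glutathione peroxidases overlapped between the groups without exception. The signal of Gpx1 was 15.30, 15.40 and 15.15 without and 14.82, 14.87 and 15.23 with TGF-β1. Gpx2 was at 14.57, 14.69 and 14.39 in the control and at 14.32, 14.36 and 14.45 in the TGF-β1 cultures. For Gpx4 the controls were at 15.78, 15.83 and 15.31 and the TGF-β1 cultures at 15.31, 15.36 and 15.32. Gpx1 and Gpx2 encode cytosolic enzymes and Gpx4 the enzyme that reduces phospholipid hydroperoxides in membranes. Their log2 differences were -0.31 ± 0.15, -0.17 ± 0.12 and -0.31 ± 0.16. Within slide row 2 all 3 were near 0, at 0.08, 0.06 and 0.01. Gpx3, a secreted peroxidase, spread over more than 1 log2 unit in each group and differed by -0.26 ± 0.47.

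All 6 members of the NRF2 axis had a lower mean, with a median of -0.34. The signal of Nfe2l2 was 14.58, 14.76 and 14.56 without and 14.46, 14.39 and 14.25 with TGF-β1. Keap1 was at 10.86, 10.86 and 10.75 in the control and at 10.68, 10.73 and 10.82 in the TGF-β1 cultures. Nfe2l2 was lower on each TGF-β1 array than on each control (-0.27 ± 0.11), whereas Keap1 overlapped at -0.08 ± 0.10. For Hmox1 the controls were at 12.53, 12.75 and 12.58 and the TGF-β1 cultures at 12.06, 12.27 and 12.41. Hmox1, which encodes the heme-degrading oxygenase 1, did not overlap either and differed by -0.37 ± 0.13, with -0.48 in row 1 and -0.16 in row 2. The signal of Txnrd1 was 13.31, 13.64 and 13.60 without and 13.01, 13.22 and 13.35 with TGF-β1. Srxn1 was at 12.38, 12.83 and 12.09 in the control and at 12.10, 12.29 and 11.82 in the TGF-β1 cultures. Thioredoxin reductase and sulfiredoxin restore oxidised thioredoxin and peroxiredoxins, and both overlapped at log2 differences of -0.32 ± 0.14 and -0.36 ± 0.21. For Nqo1 the controls were at 5.19, 6.04 and 4.60 and the TGF-β1 cultures at 4.47, 4.48 and 4.82. Nqo1 encodes a quinone reductase. Its spots were only between 1.86 and 3.37 times their local background, the controls spread over more than 1 log2 unit, and the log2 difference of -0.69 ± 0.34 was -1.14 in row 1 and 0.22 in row 2.

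The core of the antioxidant response element (letters TGACNNNGC, either strand) was searched in the RefSeq promoters of GRCm38.p6, from 250 bases before to 50 after the start site. Of the 52 members 43 had an entry there, with 57 start sites. The core was present at 7 of the 57 (12.3%), against 12.4% of all 32851 promoters. Those 7 belong to Gsta3, Gstm5, Mgst1, Gclm, Nfe2l2, Txnrd1 and Srxn1, so that no match was found in the windows of Gsta2, Gm10639, Nqo1 or Cyp4b1. The core of the xenobiotic response element, to which the aryl hydrocarbon receptor binds (GCGTG, either strand), was present at 23 of 57 (40.4%) against 32.4%, among them Gsta2, Gstm1, Cyp1a1 and Cyp1b1. The 5 windows below are shown because they place an antioxidant core, in capitals, before the start site of an enzyme described above. It lies on the strand of the gene in Gsta3 and Gstm5 and on the opposite strand in the others. The positions on GRCm38.p6, plus strand, are chr3:122245407-122245447 for Gclm, chr1:21240448-21240488 for Gsta3, chr3:107895796-107895836 for Gstm5, chr6:138140455-138140495 for Mgst1 and chr10:82859098-82859138 for Txnrd1.
Gclm: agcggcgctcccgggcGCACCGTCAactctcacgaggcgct
Gsta3: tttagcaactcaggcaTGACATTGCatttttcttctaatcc
Gstm5: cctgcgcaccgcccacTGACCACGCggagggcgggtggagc
Mgst1: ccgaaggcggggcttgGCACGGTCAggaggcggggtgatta
Txnrd1: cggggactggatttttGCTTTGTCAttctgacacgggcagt
Of the 7 genes with a core, 6 had a lower mean, with log2 differences between -0.36 and -0.10, and Gstm5 a higher one, at 0.22. A match is a letter pattern only, and binding was not measured. Elements farther from the start site lie outside the windows and were not searched.

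Among the cytochromes P450, Cyp4b1 was lower with TGF-β1 and Cyp1b1 differed between the TGF-β1 arrays. The signal of Cyp4b1 was 12.42, 12.28 and 11.90 without and 11.40, 11.36 and 11.19 with TGF-β1. Cyp4b1, a lung P450 that activates several protoxins, had groups that did not overlap and a log2 difference of -0.88 ± 0.16, with -0.96 in row 1 and -0.71 in row 2. Cyp1b1 was at 10.43, 10.81 and 10.52 in the control and at 11.53, 11.61 and 9.51 in the TGF-β1 cultures. Cyp1b1, a target of the aryl hydrocarbon receptor, was about 1 log2 unit above the controls in TGF-β1 replicates 1 and 2 and about 1 below them in replicate 3. Its log2 difference was 0.30 ± 0.54 over all arrays, 0.98 without TGF-β1 replicate 3, 0.94 in row 1 and -1.01 in row 2. For Cyp2s1 the controls were at 15.54, 15.62 and 14.84 and the TGF-β1 cultures at 15.47, 15.45 and 14.62. Cyp2s1 overlapped, with replicate 3 the lowest in each group, at -0.15 ± 0.30. The signal of Por was 15.81, 15.93 and 15.67 without and 15.68, 16.04 and 15.27 with TGF-β1. Por, the reductase that supplies the P450s with electrons, differed by -0.14 ± 0.20, and Cyp2b10 by -0.21 ± 0.29. Cyp1a1 was well above background only on the array of TGF-β1 replicate 1, at 4.95, and not on the other 5, so it was not compared.

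The aldehyde dehydrogenases held the largest difference outside the alpha GSTs and the only member that was higher without overlap. Aldh1a7 was at 10.76, 11.17 and 11.01 in the control and at 9.79, 10.20 and 9.34 in the TGF-β1 cultures. Aldh1a7 lies next to Aldh1a1 on chromosome 19 and is closely related to it. Its groups were well apart, and the mean went from 10.98 ± 0.21 to 9.78 ± 0.43 (SD, n = 3), a log2 difference of -1.2 ± 0.23 or 2.3-fold, with -0.96 in row 1 and -1.67 in row 2. For Aldh1a1 the controls were at 13.41, 13.66 and 13.35 and the TGF-β1 cultures at 13.20, 13.32 and 13.20. Aldh1a1, a retinaldehyde dehydrogenase, was lower without overlap as well, at a small log2 difference of -0.24 ± 0.12. The signal of Aldh1a3 was 4.41, 5.09 and 4.99 without and 5.87, 5.35 and 5.35 with TGF-β1. Aldh1a3, which also makes retinoic acid, was higher on each TGF-β1 array, by 0.70 ± 0.23, at a signal between 1.82 and 3.76 times the local background. Aldh3a1 was at 10.08, 10.61 and 10.11 in the control and at 9.89, 10.30 and 9.64 in the TGF-β1 cultures. Aldh3a1 overlapped at -0.32 ± 0.22.

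Of the remaining enzymes, Ces1d differed most. For Ces1d the controls were at 13.85, 13.21 and 13.05 and the TGF-β1 cultures at 13.04, 12.65 and 12.43. Ces1d encodes a carboxylesterase, and its lowest control was only just above its highest TGF-β1 culture, with a log2 difference of -0.66 ± 0.25. The signal of Ephx1 was 16.93, 16.91 and 17.02 without and 16.82, 16.88 and 16.63 with TGF-β1. The groups of Ephx1, microsomal epoxide hydrolase, were also apart, at a log2 difference of -0.18 ± 0.11. Fmo2 was at 11.76, 11.50 and 10.14 in the control and at 11.40, 11.40 and 11.30 in the TGF-β1 cultures. Fmo2, the flavin monooxygenase of lung, was low in control replicate 3 and otherwise alike, so that the log2 difference of 0.23 ± 0.40 was -0.23 in row 1, 1.16 in row 2 and -0.26 without control replicate 3. For Cbr1 the controls were at 12.82, 12.94 and 12.63 and the TGF-β1 cultures at 12.51, 12.62 and 12.68. Cbr1 and its neighbour Cbr3, carbonyl reductases, differed by -0.20 ± 0.12 and -0.31 ± 0.21. The signal of Akr1b8 was 11.51, 11.79 and 11.16 without and 12.29, 12.28 and 11.40 with TGF-β1. Akr1b8, an aldo-keto reductase, was higher by 0.50 ± 0.28 and by 0.80 without TGF-β1 replicate 3. The probes of Fmo1 were well above background on 0 arrays and that of Ugt1a6a on 1, TGF-β1 replicate 2.

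Array by array, the members also differed among the controls. Of the 47, 42 were below the control mean in control replicate 3 and 4 in control replicate 2, beside 38, 33 and 41 in TGF-β1 replicates 1, 2 and 3. The median distance from the control mean was 0.02, 0.23 and -0.21 in the controls and -0.33, -0.19 and -0.35 with TGF-β1, while the median of all genes was between -0.04 and 0.01 on each array. By this median control replicate 3 was nearer to the TGF-β1 cultures than to the other controls. Within slide row 1, 41 of 47 were lower with TGF-β1, with a median of -0.36, and within row 2 28 were, with a median of -0.06. The difference was below 0 in both rows in 26 members and above 0 in both in 4. Control replicate 3 and slide row 2 cannot be told apart here, as that row holds a single array of each group. The marker lists of other cells are given beside this. The 5 fibroblast markers of 8 that could be compared all had a higher mean, with a summed signal between 567 and 638 in the control and between 698 and 2700 in the TGF-β1 cultures, while Col3a1, Pdgfrb and Lum were not well above background. Col1a1 and Col1a2 were well above background on the 3 TGF-β1 arrays and on 0 of the controls. They were called by limma (adjusted p = 0.0091 and 0.0162), at least 2.59-fold and 2.38-fold higher when each control is set to the dimmest probe well above background on its array. The 6 basal markers summed to between 47410 and 64040 in the control and between 59840 and 151400 with TGF-β1, with a higher mean in 5, among them Krt5, Krt14 and Ngfr, and a lower one in Krt15. None of these was called (limma adjusted p = 0.179 for Krt5, 0.0859 for Krt14 and 0.154 for Ngfr), and the groups of Krt5 and Ngfr overlapped. The basal median was 1.14 in row 1 and -0.04 in row 2, where 2 of the 6 were higher. Of the 6 leukocyte markers Cd68 and Cd3e could be compared, with a sum between 1671 and 2909 and between 3295 and 4954, and Ptprc, Lyz2, Adgre1 and Cd79a were not well above background. That sum is mostly Cd68, which was higher by 0.90 ± 0.28 and was not called (limma adjusted p = 0.147). Cd3e had a lower mean, at -0.24 ± 0.16, and its groups overlapped. The part of these cells in the values of the members was not tested.

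**Figure D3:**
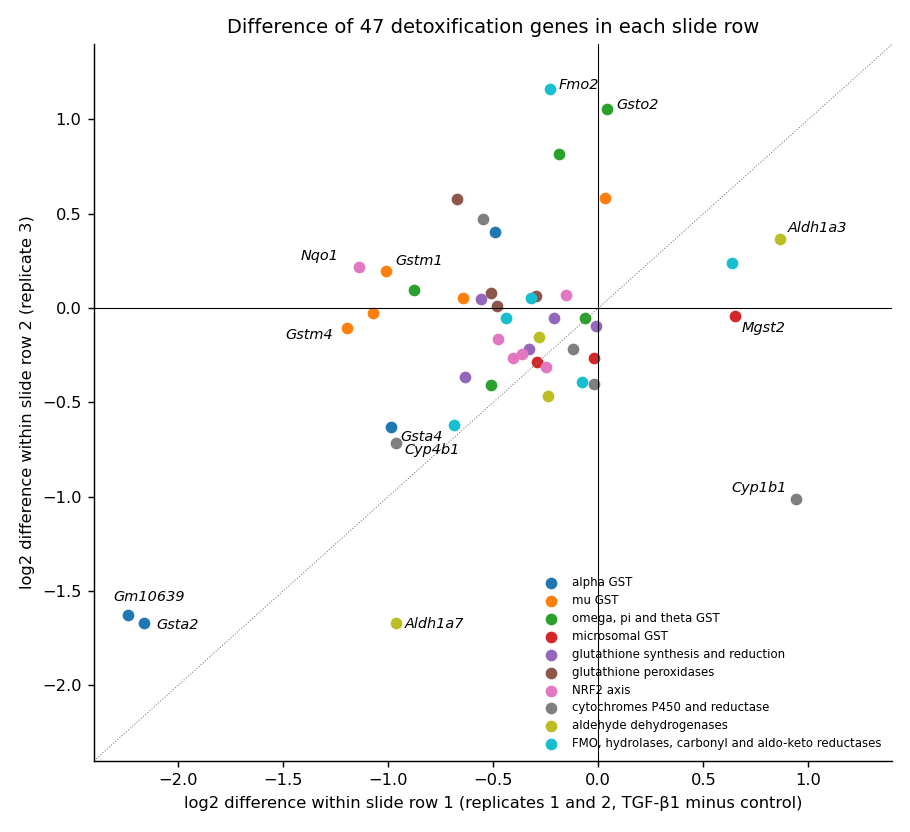
Each point is 1 of the 47 members, with the log2 difference (TGF-β1 minus control) among the 4 arrays of slide row 1 on the x axis and between the 2 arrays of slide row 2 on the y axis; the dotted line marks equal values and the colour the family. Gsta2, Gm10639, Gsta4, Cyp4b1 and Aldh1a7 are lower in both rows, Gstm1 and Gstm4 are lower in row 1 and near 0 in row 2, and Cyp1b1 changes sign.

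Of 12 compared members that had a further probe, 11 differed in the same direction by both probes, and in 9 the 2 values were within 0.3 of each other. The exception in direction was Gsto2. For Gstm1 the other probe gave -0.73 beside -0.60, and for Slc7a11 -0.45 beside -0.55. Whether the groups overlapped could depend on the probe. By the other probe those of Slc7a11, Mgst1 and Gstm6 overlapped, and those of Txnrd1 did not.

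The companion genes are 167 further genes of the same pathways, in 9 lists that were not trimmed for how they moved, and 137 of them were compared. They include Gstm3, Gstp2 and the leukotriene synthase Ltc4s among the transferases, the enzymes that supply NADPH, and the transcription factors that bind beside NRF2. By limma 1 of the 137 was higher by both thresholds (adjusted p under 0.05 and 2-fold) and 0 were lower, beside 1.19% and 0.188% of all genes. The methods' t-test gave 3 higher and 0 lower with a 2-fold change at an unadjusted threshold, namely Anpep, Bach2 and Nfe2l3, and 0 after adjustment. At an unadjusted limma p under 0.05 there were 19 higher and 17 lower. The median of the companions was -0.09, and 88 had a lower mean.

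Bach2, which encodes a repressor that can occupy the sites of NRF2, was the gene called. It was at 5.83, 5.96 and 5.49 in the control and at 7.53, 7.21 and 6.84 in the TGF-β1 cultures. The log2 difference was 1.43 ± 0.21 (SE, n = 3 per group, limma adjusted p = 0.0241). No control reached the lowest TGF-β1 array, and the dimmest spot had 2.02 times its local background. The call was lost without any 1 of the 3 controls or of TGF-β1 replicates 1 and 2, and stayed without TGF-β1 replicate 3 (1.61, adjusted p = 0.00772). It was 1.47 in row 1 and 1.35 in row 2. Nfe2l3, a relative of NRF2, was at 11.03, 11.32 and 11.46 in the control and at 13.09, 12.93 and 11.72 with TGF-β1, so that 2 of the TGF-β1 arrays were well above the controls and replicate 3 near them. It was not called over all arrays (1.31 ± 0.36, limma adjusted p = 0.121) and was without TGF-β1 replicate 3 (1.74, adjusted p = 0.0048). The other regulators compared with them, 14 in number, lay between -0.33 and 0.42, and the list had 8 higher and 8 lower with a median of 0.01.

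Other NRF2 targets and NADPH supply gave 18 lower and 2 higher of 20, a median of -0.19 and 0 calls by limma, with 4 lower at an unadjusted p under 0.05. Within slide row 1, 2 of the 20 were higher, and within row 2, 10 were. The largest differences were in Idh1, which makes NADPH in the cytosol (-0.80 ± 0.16, adjusted p = 0.0638), and in Nqo2, a quinone reductase (-0.78 ± 0.21, adjusted p = 0.114). In both, each TGF-β1 array was below each control. Fth1, the ferritin heavy chain, differed by -0.47 ± 0.17 and Ptgr1 by -0.50 ± 0.24.

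The 8 other glutathione transferases gave 2 higher and 6 lower with a median of -0.14, 0 calls and 0 at an unadjusted p under 0.05. Their direction depended on the slide row, with 2 higher in row 1 (median -0.275) and 7 in row 2 (median 0.13). Gstm3, a neighbour of the mu members, repeated their order of arrays, at 14.79, 14.77 and 13.80 in the control and 13.87, 13.80 and 13.999 with TGF-β1 (-0.56 ± 0.27, limma adjusted p = 0.271). Glutathione turnover had 8 higher and 9 lower of 17, with a median of -0.01, 0 calls and 2 in each direction at an unadjusted p under 0.05. Its highest were Anpep, an aminopeptidase (1.06 ± 0.29, adjusted p = 0.125), and Ggt6, a member of the gamma-glutamyltransferase family (0.77 ± 0.15, adjusted p = 0.0567).

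Among 21 peroxiredoxins, thioredoxins, superoxide dismutases and catalase 13 were lower and 8 higher, with a median of -0.16 and 0 calls, and 3 passed an unadjusted p under 0.05 in each direction. Split by slide row, 7 were higher in row 1 (median -0.21) and 12 in row 2 (median 0.07). Txnip, the inhibitor of thioredoxin, was at 10.57, 10.81 and 9.73 in the control and at 12.35, 12.37 and 10.99 with TGF-β1 (1.53 ± 0.44, limma adjusted p = 0.132). Both replicates 3 were the lowest of their groups, and with the slide row as a block the adjusted p of Txnip was 0.00923. Prdx4, the peroxiredoxin of the endoplasmic reticulum, was higher by 0.90 ± 0.19 (adjusted p = 0.0735), and Sod2, of mitochondria, had a log2 difference of -0.57 ± 0.18 (adjusted p = 0.158).

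Other phase I enzymes were lower in 21 and higher in 6 of 27, with a median of -0.16, 0 calls, and 5 lower and 2 higher at an unadjusted p under 0.05. Adh7, an alcohol dehydrogenase, differed by -1.07 ± 0.33 (limma adjusted p = 0.151), Cyp3a13 by -0.86 ± 0.19 (adjusted p = 0.0849) and Cyb5a, cytochrome b5, by -0.58 ± 0.14 (adjusted p = 0.0993), each without overlap. Ces2g and Ephx2 went the other way with overlap, at 0.78 ± 0.49 and 0.52 ± 0.57 (limma adjusted p = 0.371 and 0.602). Both were called higher without TGF-β1 replicate 3 (1.38 and 1.22, limma adjusted p = 0.0141 and 0.0194). Other conjugating enzymes were lower in 7 and higher in 3 of 10, with a median of -0.11 and 0 calls, and 1 lower and 2 higher at an unadjusted p under 0.05. Their median was -0.15 in row 1, with 3 higher, and 0.08 in row 2, with 8 higher. Sult1a1, a phenol sulfotransferase, differed by -1.28 ± 0.39 (adjusted p = 0.144), at -1.95 in row 1 and 0.07 in row 2. Papss2, which makes the sulfate donor, was at 0.72 ± 0.22 (adjusted p = 0.147).

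**Figure D4:**
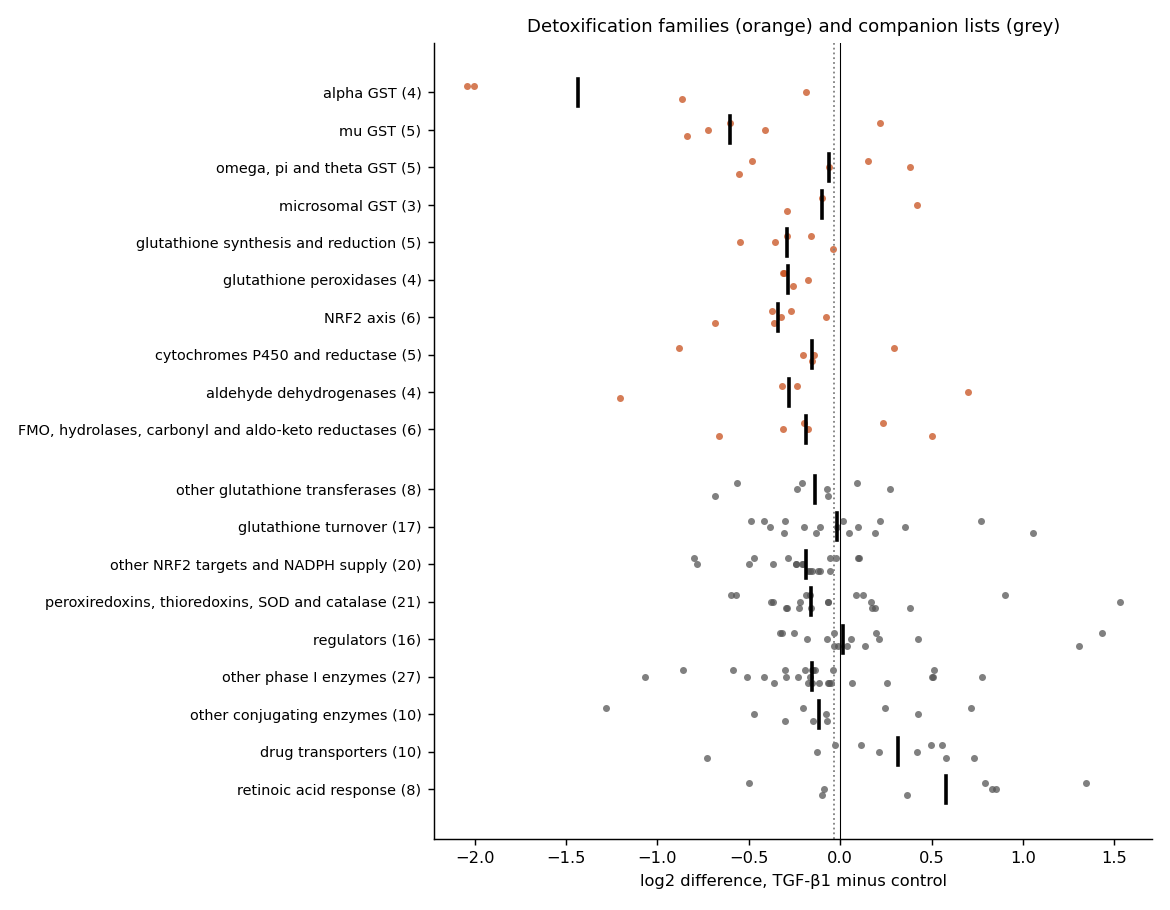
Log2 difference (TGF-β1 minus control) of each gene compared, by member family (orange) and companion list (grey), with the number of genes in parentheses; the black bar is the median of the list and the dotted line the median of all genes tested, -0.03. The alpha GSTs have the lowest median, -1.43, and the retinoic acid response list the highest, 0.58.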

How the data were processed

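Total RNA of 6 cultures, 3 control and 3 with TGF-β1, was labelled with Cy3 and hybridized to a 1-colour Agilent mouse array. The authors deposited the scanner output of Agilent Feature Extraction 11.0.1.1 (as in their processing notes), in which the intensity of each spot is on a linear scale, after background subtraction and without normalization between arrays. Median spot and local background intensities and the marks for spots well above background are in the same files. Groups and replicate numbers come from the sample titles.

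Control spots and spots marked as outliers were left out, which kept 56599 of 56605 probes. Probes were named through their RefSeq accession (32991 probes, 22910 genes; names and gene order from the table of GRCm38.p6). Intensities were taken to log2 and normalized by quantiles. A probe was used when well above background on at least 3 of 6 arrays, and of a gene's probes the one with the highest mean was taken. TGF-β1 was compared with control in limma 3.58.1 (R 4.3.3), on all genes, with Benjamini-Hochberg adjustment; a call needs an adjusted p under 0.05 and a 2-fold change. The fit was tested on simulated data. Levels were compared between arrays, not between probes, and the number of arrays limits the precision. The samples are separate cultures, with 3 per group.

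The members, the 9 companion lists, the 10 marker lists and the alternatives were chosen with earlier results of these data known. Values by array are given for members that met both thresholds or changed 2-fold, for the member with the largest difference in each family and for a list of reference members; of each companion list, the genes called and up to 4 others with the largest differences are named. A gene that this rule selects is not reported. Other settings tried were 75th percentile scaling, a normexp background with offset 50, other filters, the mean of a gene's probes, other thresholds, the methods' t-test, other variance priors, array weights, blocks for replicate number and slide row, and leaving out each array. Promoters were read from the RefSeq table and the pair of alpha GST promoters aligned with Biopython 1.88.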

Additional observations from a re-analysis of the deposited data

How the results depend on the processing

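The median log2 difference of the members was below 0 under all 21 alternatives, and moved by more than the SD over the control arrays (0.222) only within slide row 2, where it was -0.055 (without test, 1 array a group). There the medians of the mu GSTs (0.051), of the omega, pi and theta GSTs (0.096) and of the glutathione peroxidases (0.072) also changed sign. Of the 47 members, 22 were lower and 3 higher under every alternative. Which members passed the threshold depended on the setting. Beside the 2 lower of the main setting, there were 5 with 75th percentile scaling (Aldh1a7, Cyp4b1 and Gsta4 added), 4 with no minimum for the fold, 4 with array weights, 6 within slide row 1, and 0 with no filter or by the methods' t-test after adjustment; leaving out 1 array gave 0 to 5. No alternative gave a member that was called higher. Of the companions, 1 was called higher in the main setting, 0 with the normexp background, with no filter and by the adjusted t-test, 3 by the unadjusted t-test, 5 at an unadjusted limma p, 10 with array weights or within slide row 1, and 2 (Bach2 and Txnip) with the slide row as a block. Companions called lower were 0 in the main setting, 2 at an unadjusted p, 1 with array weights and 2 within slide row 1. Leaving out 1 array gave 0 to 9 higher, the 9 without TGF-β1 replicate 3, and 0 to 1 lower. The causes were not tested.

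Whether replicate numbers shared by the groups pair the cultures could not be decided. The deviations of same-numbered arrays from their group means correlated at -0.01, 0.33 and -0.05. Those of differently numbered arrays correlated between -0.37 and 0.25. With so few arrays in a group, the deviations constrain each other, and these values cannot exclude a pairing. With the replicate block the members called were again Gsta2 and Gm10639, and 2 companions were called, Bach2 and Txnip. Signals near background, as for Nqo1, Aldh1a3 and Gsto2, limit how well a difference can be measured. The dimmest spots of Gsta2 and Gm10639 were also low, at 3.34 and 3.89 times their local background. The size of their differences depended on the background method, being smaller with normexp.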

Other observations

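By limma 0 genes of retinoic acid response and of drug transport were called. Of 8 retinoic acid response genes 5 had a higher and 3 a lower mean, with a median log2 difference of 0.58 against -0.03 over all genes, and 4 higher and 1 lower had an unadjusted p under 0.05. The median was 0.74 within slide row 1 and 0.08 within row 2. Cyp26b1, which degrades retinoic acid, was at 8.28, 7.97 and 8.38 in the control and at 10.24, 9.91 and 8.51 in the TGF-β1 cultures (1.34 ± 0.43 SE, limma adjusted p = 0.154). Its 2 high arrays are TGF-β1 replicates 1 and 2, and without replicate 3 it was called (1.86, limma adjusted p = 0.00504), as was Rdh10, a retinol dehydrogenase (0.79 ± 0.27 over all arrays, 1.12 without replicate 3, adjusted p = 0.172 and 0.00574). Tgm2, a transglutaminase, differed by 0.85 ± 0.24 (limma adjusted p = 0.125), without overlap, and was called without replicate 3 (1.07, adjusted p = 0.0247), with an adjusted p of 0.0183 with the slide row as a block. Rarb, a retinoic acid receptor, was lower without overlap (-0.50 ± 0.16, adjusted p = 0.153).

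Of 10 drug transporters 7 had a higher and 3 a lower mean, with a median of 0.32, and 3 higher and 1 lower at an unadjusted p under 0.05. Within slide row 1, 7 were higher (median 0.36), and within row 2 only 3 were (median -0.10). Slco3a1 was above the controls on each TGF-β1 array (0.56 ± 0.13, limma adjusted p = 0.0925), Abcg2 overlapped (0.73 ± 0.30, adjusted p = 0.222), and Abcc3, an exporter of conjugates, was below the controls on each (-0.73 ± 0.19, adjusted p = 0.11).

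The ciliated cell factor Foxj1 was the marker of an epithelial cell type that was called (1.47 ± 0.10, limma adjusted p = 0.00238), and 6 of the 8 ciliated markers had a higher mean. Goblet (2 of 6 compared, median -0.48), type 1 alveolar (5 of 6, -0.09), type 2 alveolar (3 of 6, 0.16) and endothelial markers (2 of 6, 0.16) gave 0 calls, with 0, 0, 1 and 0 at an unadjusted p under 0.05. Sftpc, Sftpa1 and Sftpb of type 2 cells were not well above background.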
